A study of Homo sapiens with 4 samples.

Results

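ELF3 and 9 other genes of the ETS family (ELF1, ELF2, ELF4, ETS1, ETS2, GABPA, ELK1, ELK3 and ETV6) were followed in the RNA of HGC27 cells, an established line of human gastric cancer cells, after knockdown of AARS1. They were taken by symbol from a table of 14431 genes, and all 10 were listed there. ELF3 was chosen because its fall in siAARS1 was among the largest, so its values are given as a description without a test. The other 9 were named as relatives of ELF3 with results of these data known. The 2 control libraries carry the genotype WT and the tag NC, which is not spelled out, in the labels. The 2 siAARS1 libraries carry AARS1 knockdown. All 4 came from cells kept in DMEM without glucose, with 25 mM lactate added for 24 h per the labels. The text of the study gives another duration for the lactate. The labels do not say how many small interfering RNAs were used, whether the control cells received one, or whether the replicates were separate cultures, so p-values measure only the spread between these libraries. In bulk RNA, fewer cells with a transcript and less of it per cell cannot be told apart.

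ETS factors share a DNA-binding domain that reads a short core motif, GGAA, and differ in their partners and in the signals they answer to. ELF3 is found mainly in epithelia, where it acts in differentiation and is induced by inflammatory signals through NF-kB. ELF1, ELF2 and ELF4 form a branch of broadly expressed activators. ETS1 and ETS2 are activated through RAS and ERK signalling. GABPA binds DNA for the GABP complex, which drives housekeeping and mitochondrial genes. ELK1 and ELK3 join serum response factor at immediate early genes, where ELK3 mostly represses, and ETV6 is a repressor.

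The promoters of the genes that lay lowest and highest among the 10 are shown here, since GGAA is the motif that ETS proteins themselves bind. They run from 250 bases before the RefSeq start to 50 bases after it, on GRCh38.p14, and capitals mark GGAA on either strand (written TTCC where it lies on the other strand). ELF3 is read from the plus strand of chr1:202010337-202010636 and GABPA from the plus strand of chr21:25734722-25735021.
ELF3: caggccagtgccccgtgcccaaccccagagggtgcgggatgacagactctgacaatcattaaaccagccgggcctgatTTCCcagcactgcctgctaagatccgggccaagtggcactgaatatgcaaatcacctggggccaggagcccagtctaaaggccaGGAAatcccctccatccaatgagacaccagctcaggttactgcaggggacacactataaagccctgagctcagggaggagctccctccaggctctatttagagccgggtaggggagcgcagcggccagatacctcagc
GABPA: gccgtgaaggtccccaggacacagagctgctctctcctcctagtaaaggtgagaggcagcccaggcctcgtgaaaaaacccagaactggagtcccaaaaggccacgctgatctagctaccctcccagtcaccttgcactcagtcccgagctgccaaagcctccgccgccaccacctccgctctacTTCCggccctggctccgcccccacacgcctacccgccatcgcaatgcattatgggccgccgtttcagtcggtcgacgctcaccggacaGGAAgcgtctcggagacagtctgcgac
Promoters were found for 9 of the 10 genes, all but ETS1, and GGAA lay in 7 of these 9 and in 95.5% of all 35116 promoters of that length. The window for ELF1 (minus strand of chr13:40982233-40982532) lies inside the gene, far from the start that GENCODE gives it at 41061440. It held 0 of the motifs searched and is counted among the 9. The windows printed for ELF3 and GABPA also lie inside the genes that GENCODE gives, which begin at 202007945 and 25734570. Those of ELF4, ETS2 and ETV6 lie wholly before the GENCODE start. Distances are from the RefSeq start. ELF3 held 2 GGAA matches, 172 and 88 bases before the start, and the latter overlapped a match to the kappaB motif. That motif was in 2 of the 9, ELF3 and ETS2, and in 11.3% of all promoters. ELF3 also held TATAAA 34 bases before its start. TATAAA was in 2 of the 9, ELF3 and ELF2, and anywhere in the window in 11.5% of all promoters. GABPA was the only 1 of the 9 with CCGGAAGT, an ETS consensus found in 4.14% of promoters, and it overlapped the first of its 2 GGAA matches, 65 bases before the start. The other lay 23 bases after it. GGAATG, a motif of TEAD factors, which contains GGAA, was in 0 of the 9 windows and in 14% of all promoters. TGACTCA, the AP-1 motif, was likewise in 0 of the 9, beside 4.95% of all. CACGTG, an E-box, was in 2 of the 9 and 7.26% of all, and GGGCGG, read by SP factors, in 5 of the 9, GABPA among them, and 45.0% of all. Every motif was searched on both strands. These matches are letters only, and binding was not measured here.

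Each library had between 30653210 and 33522573 reads over the listed genes. The targeted gene, listed as AARS, had 428 and 417 CPM (counts scaled to a fixed total of reads per library) in control and 292 and 298 CPM in siAARS1. Between groups, 10032 of 14199 genes tested had an adjusted p-value under 0.05 (limma, Benjamini-Hochberg over all genes tested). That is 70.7%, with 32.6% higher and 38.0% lower in siAARS1. Differences below are siAARS1 minus control on the log2(CPM + 1) scale, with a median of -0.05 over all genes tested. They understate the change of low genes. Markers of the cell type went partly against an epithelial label. Of 9 markers of differentiated gastric epithelium 0 were listed, and of 5 general epithelial markers only KRT8 and CDH1 were, summing to 27.0 to 27.3 CPM in control against 6.14 to 7.29 CPM in siAARS1. They moved with ELF3, and the part of a change in epithelial character in the fall of ELF3 was not tested. Of 6 mesenchymal markers 5 were listed, summing to 5205 to 5264 CPM in control against 4779 to 4888 CPM in siAARS1, nearly all of it VIM. ZEB1 and ZEB2, repressors of epithelial genes on that list, went the other way. ZEB1 rose from 6.16 and 6.84 to 50.03 and 52.3 CPM, a log2 difference of 2.80, and ZEB2 from 13.3 and 12.8 to 38.6 and 41.2 CPM, a log2 difference of 1.54. With the 2 corrections described under ELF3 they were at 1.75 and 1.37 (ZEB1) and at 0.22 and 0.25 (ZEB2). Of 4 endothelial markers 0 were listed.

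ELF3 (ENSG00000163435; chromosome 1, 202007945 to 202017188, GRCh38) had 6.48 and 7.44 CPM in control against 0.550 and 0.812 CPM in siAARS1. These values rest on 221, 236, 17 and 27 reads. Both siAARS1 libraries lay far below both controls. The means were 6.96 ± 0.677 and 0.681 ± 0.185 CPM (SD, n = 2), so control was 10.2-fold above siAARS1. The log2 difference was -2.25 (SE 0.147), the third lowest of all genes tested. It was -2.02 once the trend of each library with the GC content and length of whole transcripts had been taken out (below, the transcript correction), and -1.95 when this was done for the coding sequence and 3' UTR separately (the CDS/UTR correction). Pairs of corrected values are given in that order. With a pseudocount of 0.1 it was -3.19, and in edgeR on recovered reads -3.30. GENCODE annotates ELF3-AS1 on the opposite strand, with exons that overlap those of ELF3, and AL691482.3 on the same strand, also with exon overlap. The use of strand in counting is not given in the sources used here, so reads of ELF3 and ELF3-AS1 cannot be told apart. Neither of the overlapping transcripts has a value of its own here.

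The genes whose values over the 4 libraries, each centred on its own mean, lay nearest to ELF3 on the log2 scale were HSPA6, C11orf53, EMP1, NGFR and MEIS3. Their distances from ELF3 ran from 0.23 (HSPA6) to 0.47 (MEIS3), over 4 libraries. HSPA6, an inducible heat shock protein, had 22.3 and 22.6 CPM in control against 3.27 and 3.52 CPM in siAARS1. NGFR, a neurotrophin receptor, had 55.0 and 57.2 CPM in control against 14 and 14.6 CPM in siAARS1. EMP1, an epithelial membrane protein, had 43.9 and 42.0 CPM in control against 9.97 and 11.1 CPM in siAARS1. With 2 groups of 2 libraries such likeness is mostly a fall of like size.

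In the ELF branch, ELF1 and ELF2 were higher and ELF4 was slightly lower. ELF1 (ENSG00000120690; chromosome 13, 40932028 to 41061440) had 20.6 and 23.3 CPM in control against 36.3 and 39.0 CPM in siAARS1. ELF2 (ENSG00000109381; chromosome 4, 139028112 to 139177218) had 15.2 and 16.0 CPM in control against 30.6 and 31.3 CPM in siAARS1. Both were higher in both siAARS1 libraries, by 0.75 for ELF1 (SE 0.0714, limma adjusted p = 5.17e-09) and 0.94 for ELF2 (SE 0.0728, limma adjusted p = 1.83e-10). Neither rise held after the corrections. ELF1 turned to -0.24 under the transcript correction (limma adjusted p = 0.00189) and was at 0.01 after the other (limma adjusted p = 0.879), and ELF2 was at 0.02 and 0.13, neither of which passed (limma adjusted p = 0.798 and 0.0915). ELF4 (ENSG00000102034; chromosome X, 130064874 to 130110716), which acts in immune and cell cycle control, had 47.2 and 52.7 CPM in control against 43.8 and 41.0 CPM in siAARS1. It fell by 0.23 on the log2 scale (SE 0.0611, limma adjusted p = 0.00224). Without control replicate 2 it was at -0.15 and no longer passed (limma adjusted p = 0.0833), and the corrections turned it to 0.05 and 0.06, also not past it (limma adjusted p = 0.461 and 0.353).

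GABPA had the largest rise of the 10 genes. GABPA (ENSG00000154727; chromosome 21, 25734570 to 25772460) had 4.46 and 5.52 CPM in control against 26.8 and 27.9 CPM in siAARS1. The means were 4.99 ± 0.748 and 27.4 ± 0.824 CPM (SD, n = 2), a 5.49-fold rise, and both siAARS1 libraries lay far above both controls. The log2 difference was 2.25 (SE 0.10, limma adjusted p = 1.22e-14). It was 0.97 after the transcript correction (limma adjusted p = 2.01e-08) and 1.17 after the CDS/UTR correction (limma adjusted p = 2.53e-11), higher than control under every alternative run. ATP5J, a subunit of ATP synthase, is read in the other direction from a start 1103 bases away, with exons that overlap those of GABPA. ATP5J had 64.2 and 61.0 CPM in control against 59.7 and 60.5 CPM in siAARS1, and its difference of -0.06 missed the threshold (limma adjusted p = 0.319) but turned to 0.21 under the transcript correction and passed it (limma adjusted p = 0.000208). ELF1 has such a neighbour too, WBP4, with starts 166 bases apart. WBP4, a splicing factor, rose from 6.39 and 6.21 to 17.3 and 18.6 CPM, a difference of 1.37 (limma adjusted p = 3.51e-11) that was 0.72 after the transcript correction (limma adjusted p = 9.35e-07). Both neighbours were picked by position.

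ETS1 and ETS2 did not pass the threshold on the deposited CPM. ETS1 (ENSG00000134954; chromosome 11, 128458761 to 128587558) had 39.5 and 35.7 CPM in control against 39.6 and 39.7 CPM in siAARS1. ETS2 (ENSG00000157557; chromosome 21, 38805307 to 38824955) had 49.2 and 48.3 CPM in control against 50.4 and 47.0 CPM in siAARS1. The groups of ETS2 overlapped, and those of ETS1 did not, by a margin far smaller than the gap between its controls. The differences were 0.08 for ETS1 (SE 0.0616, limma adjusted p = 0.281) and -0.00 for ETS2 (SE 0.0552, limma adjusted p = 0.989). ETS1 turned to -0.14 with median scaling and -0.10 with quantile normalization, and was past the threshold at 0.23 after both corrections (limma adjusted p = 0.00111 and 0.000775), as was ETS2 at 0.14 after the CDS/UTR correction (limma adjusted p = 0.013). ETS2 passed in the other direction with median scaling, at -0.22 (limma adjusted p = 0.00105), and with quantile normalization, at -0.14 (limma adjusted p = 0.0388).

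ELK3 fell and ELK1 did not pass the threshold. ELK3 (ENSG00000111145; chromosome 12, 96194382 to 96269835) had 3.67 and 5.01 CPM in control against 2.27 and 2.59 CPM in siAARS1, from 125, 159, 70 and 86 reads. The controls lay further apart than the siAARS1 libraries, and the groups did not overlap. Its difference was -0.63 (SE 0.147, limma adjusted p = 0.000701). It was larger after the corrections, at -1.09 and -0.80 (limma adjusted p = 1.5e-06 and 1.89e-05), so that no alternative run ended its call or turned it. GENCODE places an antisense transcript over its exons. ELK1 (ENSG00000126767; chromosome X, 47635521 to 47650604) had 32.6 and 35.5 CPM in control against 31.8 and 30.4 CPM in siAARS1, a difference of -0.13 (SE 0.065, limma adjusted p = 0.0872). The corrections turned it to 0.17 and 0.27, past the threshold in that direction (limma adjusted p = 0.0131 and 0.000213). It was called lower with median scaling, at -0.35 (limma adjusted p = 2.86e-05), and with quantile normalization, at -0.32 (limma adjusted p = 0.000342). ETV6 (ENSG00000139083; chromosome 12, 11649854 to 11895402) had 7.86 and 7.53 CPM in control against 6.96 and 6.98 CPM in siAARS1. Both siAARS1 libraries were lower by less than 1 CPM, and the difference of -0.13 (SE 0.108, limma adjusted p = 0.306) was not past the threshold. ETV6 was called lower with median scaling, at -0.35 (limma adjusted p = 0.00541), and with quantile normalization, at -0.30 (limma adjusted p = 0.0151). After the corrections it was at -0.23 and 0.025, neither past the threshold (limma adjusted p = 0.056 and 0.84).

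**Figure D1:**
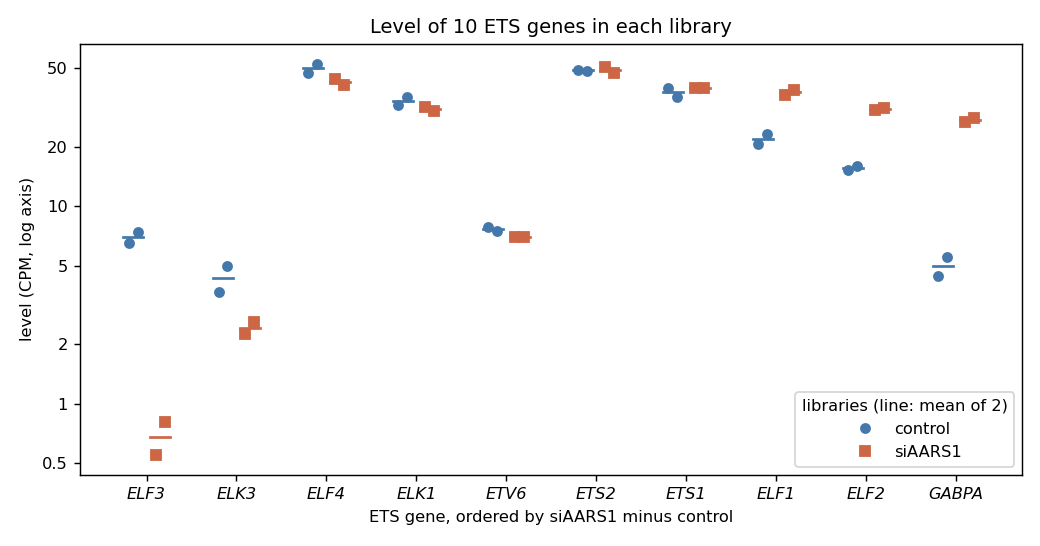
Level of each of the 10 ETS genes in CPM (log axis) in the 2 control libraries (circles) and the 2 siAARS1 libraries (squares), with a line at the mean of each pair. ELF3 lies far left with siAARS1 at 0.550 and 0.812 CPM, GABPA far right with siAARS1 at 26.8 and 27.9 CPM, and ETS2 is the gene whose groups overlap.

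Control and siAARS1 did not overlap in 9 of the 10 genes, 4 with siAARS1 higher and 5 with it lower. Of all genes tested 85.1% did not overlap. ELF3, 1 of the 5, was chosen for its fall, so its place in this count was set by that choice. Of the 9 genes other than ELF3, 5 were called, 3 higher and 2 lower, where 70.7% of all genes were called. Their median difference was -0.00, beside -0.05 for all genes. After the transcript correction 5 were called, beside 66.0% of all genes, but they were other genes in part. GABPA, ETS1 and ELK1 were higher, and ELF1 and ELK3 lower. After the CDS/UTR correction 5 were called, beside 66.2% of all genes, namely GABPA, ETS1, ETS2 and ELK1 as higher and ELK3 as lower. Scaling each library to the same median moved the median of all genes to -0.27 and called all 9, with 3 higher and 6 lower.

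Levels of different genes can be compared only per length. In control, per kilobase of transcript, ETS1 stood highest at 16.9 CPM, then ETS2 at 12.9, ELK1 at 12.6 and ELF4 at 12 CPM. The ranges of ETS2, ELK1 and ELF4 overlapped from neighbour to neighbour. ELF1 at 6.15 and ELF2 at 3.90 CPM per kilobase followed, each apart from its neighbours. ELF3 at 1.39 overlapped ETV6 at 1.29, and ELK3 at 1.03 overlapped GABPA at 0.974 CPM per kilobase. GENCODE gives ELF3 3 principal transcripts of 2044 to 4994 bases, and the shortest would place it at 3.40 CPM per kilobase, still under ELF2. The shorter principal transcript of ELK1, of 2258 bases, would place it at 15.1 CPM per kilobase, above ETS2. In siAARS1, GABPA stood at 5.34 CPM per kilobase and ELF3 at 0.136, or 0.333 with the shortest transcript.

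The transcripts that were higher had low GC content. GABPA, ELF1 and ELF2 had transcripts of 36.4%, 38.1% and 39.6% GC, within the lowest of 5 equal groups of all genes by GC content (27.8% to 41.6%). Their 3' UTRs were lower still, at 29.8%, 29.7% and 31.1% GC. ELF3 had 56.0% GC, close to ELF4 at 56.0% and ELK1 at 57.0%, which differed little between groups. All genes followed the same order, with a median difference of 0.76 in the lowest GC group and -0.30 in the highest. In the lowest group 79.8% of all genes were called higher and 3.69% lower, and in the other 4 groups 20.9% and 47.1%. ELK3, in the second group with 42.7% GC, fell where the median of all genes was 0.20. The part of GC content in these differences was not tested beyond the corrections.

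**Figure D2:**
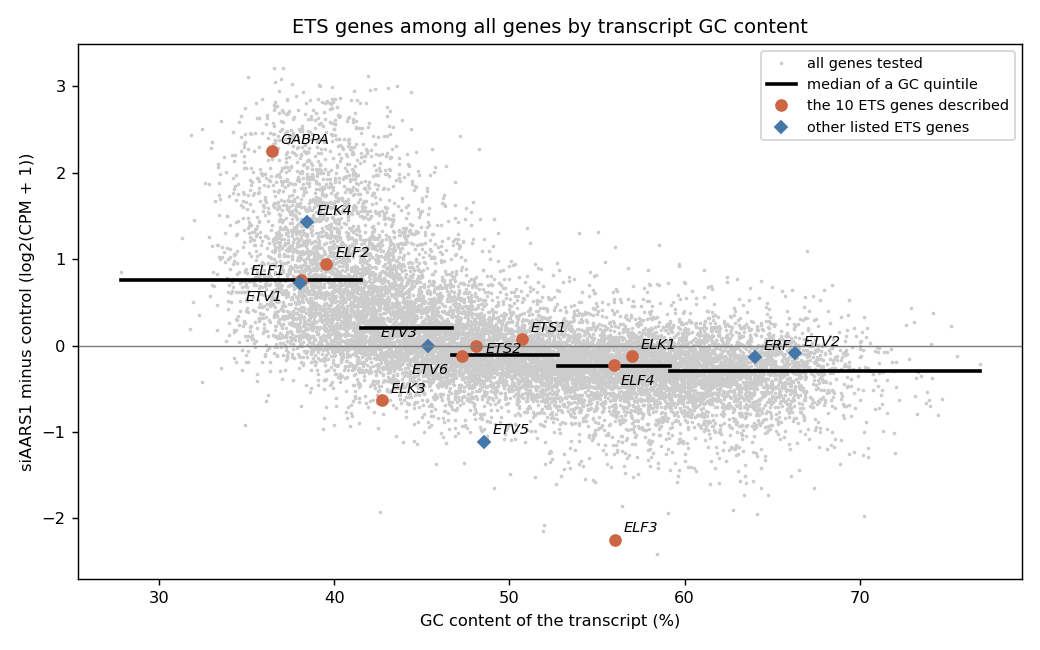
Difference of siAARS1 from control on the log2(CPM + 1) scale against the GC content of the transcript in percent, for all genes tested (grey), the 10 ETS genes described (circles) and the other listed ETS genes (diamonds), with black lines at the median of each GC quintile. The 5 ETS genes under 40% GC lie between 0.72 and 2.25, near or above the median of their quintile, while ELF3 at 56.0% GC lies at -2.25, below the cloud of genes of like GC content.

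The rest of the family was followed from a list of its members. Of the 18 other human ETS genes, 6 were listed, and the 12 not listed included EHF, ELF5 and SPDEF, the other ETS factors typical of epithelia. Of the 6 tested, 2 were called higher and 2 lower, with a median of -0.05, where 70.7% of all genes were called. Under the transcript correction 1 was higher and 3 lower. ELK4, the third partner of serum response factor beside ELK1 and ELK3, rose from 18.2 and 19.6 to 49.9 and 55.1 CPM, a difference of 1.43 (limma adjusted p = 3.8e-14). ETV1, of the PEA3 branch, rose from 16.3 and 16.6 to 27.8 and 27.6 CPM, a difference of 0.72 (limma adjusted p = 1.58e-08). Both have transcripts under 40% GC, and after the transcript correction ELK4 was at 0.01 (limma adjusted p = 0.933) and ETV1 turned to -0.57 (limma adjusted p = 5.98e-07). After the other correction they were at 0.70 (limma adjusted p = 8.46e-11) and 0.08 (limma adjusted p = 0.281).

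ETV5, also of the PEA3 branch, fell from 4.96 and 4.19 to 1.81 and 1.35 CPM. Its difference was -1.11 (limma adjusted p = 8.66e-07), and it stayed lower and past the threshold after both corrections, at -1.07 and -0.93. ERF, a repressor controlled by ERK, had 89.9 and 89.8 CPM in control against 82.4 and 80.9 CPM in siAARS1, a difference of -0.14 (limma adjusted p = 0.0104). Its call was lost without control replicate 1 at -0.13 (limma adjusted p = 0.0623) and without control replicate 2 at -0.14 (limma adjusted p = 0.0571), and the corrections turned it to 0.25 and 0.22. ETV3 and ETV2 had overlapping groups and differences of -0.01 and -0.09. ETV3 was called lower with median scaling, at -0.23 (limma adjusted p = 0.00328), with quantile normalization, at -0.20 (limma adjusted p = 0.0127), and under the transcript correction, at -0.29 (limma adjusted p = 0.000299), but lay at 0.09 under the CDS/UTR correction (limma adjusted p = 0.16). Of the 16 listed ETS genes, the 5 in the lowest GC group were all called higher on the deposited CPM. In that group 79.8% of all genes were called higher. Of the other 11, ELF3 aside, 0 were called higher and 4 lower (ELF4, ELK3, ERF and ETV5). Among all genes of those other GC groups 20.9% were called higher and 47.1% lower. After the transcript correction only GABPA of those 5 was higher and past the threshold, while ELF1 and ETV1 were lower.

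**Figure D3:**
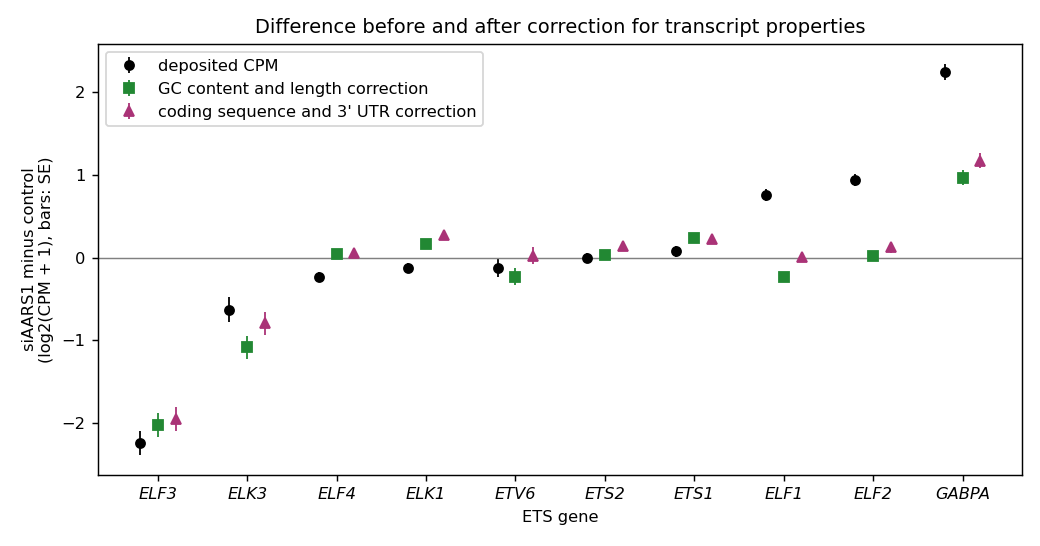
Difference of siAARS1 from control on the log2(CPM + 1) scale for the 10 ETS genes on the deposited CPM (circles), after the transcript correction for GC content and length (squares) and after the CDS/UTR correction (triangles), with bars of 1 SE. ELF3 stays near -2 and GABPA falls from 2.25 to 0.97 and 1.17, while ELF1 and ELF2 drop to between -0.24 and 0.13.

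Genes around ELF3 were taken from lists of its inducers, of genes known as its targets and of epithelial genes. Of 14 targets, 4 were listed, and all 4 were called, 3 lower and 1 higher, with a median of -0.80, where 70.7% of all genes were called and 38.0% called lower. The list did not sort targets by whether ELF3 raises or lowers them, so a fall need not be the direction of lost activation. KRT4, an epithelial keratin, had 34.6 and 35.7 CPM in control against 13.2 and 12.8 CPM in siAARS1, a difference of -1.37 (limma adjusted p = 3.17e-13). CLDN7, a tight junction claudin, had 15.5 and 14.8 CPM in control against 5.28 and 6.38 CPM in siAARS1, a difference of -1.25 (limma adjusted p = 8.77e-10). Both stayed lower and past the threshold after both corrections. ANGPT1, an angiopoietin with a transcript of 35.9% GC, rose from 1.08 and 1.20 to 6.64 and 8.18 CPM, a difference of 1.97 (limma adjusted p = 4.92e-11) that was 0.93 and 1.10 after the corrections. NOS2, the fourth, was at -0.35 (limma adjusted p = 0.0449), and its call was lost after both corrections, in edgeR and DESeq2, with a pseudocount of 0.1, with no filter on low values, and without control replicate 1, siAARS1 replicate 1 or siAARS1 replicate 2.

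Of 30 epithelial genes, 13 were listed. Of these 7 fell, 3 rose and 3 did not pass the threshold, with a median of -0.32, where 70.7% of all genes were called. Without siAARS1 replicate 2, and likewise in DESeq2, 4 were lower and 3 higher. KRT8, a keratin of simple epithelia, had 24.8 and 25.2 CPM in control against 6.61 and 5.08 CPM in siAARS1, a difference of -1.93 (limma adjusted p = 3.22e-13). It was at -1.63 and -1.59 after the corrections. CLDN7, which is also on the list of ELF3 targets, was the third by size. TJP1, a scaffold of tight junctions, went the other way, from 41.0 and 37.9 to 120 and 119 CPM, a difference of 1.57 (limma adjusted p = 4.24e-17) that was 1.03 and 0.36 after the corrections. The summed level of the 13 genes was 186 to 190 CPM in control against 276 to 278 CPM in siAARS1, so the sum and the median differ in sign. After the transcript correction 6 were lower and 3 higher, with a median of -0.36.

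Of 12 genes of the NF-kB pathway, which induces ELF3, 9 were listed, and 4 fell, 3 rose and 2 did not pass the threshold, where 70.7% of all genes were called. Under the transcript correction 2 were lower and 4 higher, with RELA, a main activating subunit, turning from -0.23 to 0.12. IL1A, IL1B and TNF, the cytokines of the list, were not listed. RELB fell from 3.84 and 4.92 to 1.49 and 1.56 CPM, a difference of -1.08 (limma adjusted p = 1.19e-06) that was -0.81 after both corrections. REL rose from 5.37 and 4.35 to 19.8 and 23.3 CPM, a difference of 1.94 (limma adjusted p = 7.85e-13) that was 0.57 and 0.67 after the corrections. CHUK, a kinase that acts upstream of RELB, rose by 1.18 (limma adjusted p = 1.91e-14), which was 0.25 after the transcript correction and turned to -0.03 after the other (limma adjusted p = 0.512). The median of the list was -0.23, and 0.12 after the transcript correction.

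Partners and known targets of the other ETS factors were followed in the same way. Of 14 partners and regulators, 9 rose and 3 fell, with a median of 0.18, where 70.7% of all genes were called. The split was 6 higher and 5 lower under the transcript correction, 4 and 3 under the CDS/UTR correction, and 3 and 3 with median scaling. MKL2, a coactivator of serum response factor, rose from 20.5 and 22.6 to 54.2 and 59.3 CPM, and NCOR1, a corepressor, from 75.3 and 78.7 to 193 and 193 CPM. MAPK3, the kinase ERK1, fell from 67.3 and 70.7 to 46.7 and 44.5 CPM, a difference of -0.59 (limma adjusted p = 2.18e-09). MKL2 was at 1.36 (limma adjusted p = 6.55e-14) and NCOR1 at 1.31 (limma adjusted p = 4.3e-17). After the transcript correction the 3 were at 1.51 (MKL2), 0.70 (NCOR1) and -0.24 (MAPK3). After the CDS/UTR correction NCOR1 was at 0.33 and MAPK3 at -0.23, and MKL2 was not among the genes fitted.

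Known targets of ELK factors and serum response factor, most of them immediate early genes, were followed next. Of 12, 10 were tested, and 9 fell and 0 rose, where 38.0% of all genes were called lower, with a median of -0.70. FOS had 7.62 and 7.28 CPM in control against 1.98 and 1.62 CPM in siAARS1, a difference of -1.60 (limma adjusted p = 5.67e-10). EGR1 had 2.52 and 3.78 CPM in control against 0.939 and 0.632 CPM in siAARS1, a difference of -1.21 (limma adjusted p = 2.25e-06). IER3 had 13.5 and 13.0 CPM in control against 6.09 and 5.87 CPM in siAARS1, a difference of -1.03 (limma adjusted p = 1.05e-08). None of the alternatives run ended or turned the call of these 3. The member not called was MCL1, at 0.07 (limma adjusted p = 0.151). Under the transcript correction 9 of the 10 were called lower, with a median of -0.33. They then included MCL1, which turned to -0.17, while SRF went from -0.24 to 0.10 and was not past the threshold. Under the CDS/UTR correction 8 were lower and SRF and MCL1 higher, at 0.16 and 0.18, with a median of -0.27.

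All 12 genes known as GABP targets were tested, and 5 rose, 5 fell and 2 did not pass the threshold, with a median of -0.03, where 70.7% of all genes were called. The 5 that fell were COX4I1 (-0.33), COX5B (-0.28), SDHB (-0.25), POLRMT (-0.24) and ATP5B (-0.12). Under the transcript correction POLRMT and ATP5B turned, to 0.10 and 0.07. Under the CDS/UTR correction POLRMT and COX5B did, to 0.04 and 0.02, while SDHB stayed at -0.15 under both corrections. Of the 5 that rose, YAP1 (0.21) and SKP2 (0.36) turned under the transcript correction, to -0.39 and -0.34, both past the threshold. Under the CDS/UTR correction YAP1 was at -0.07 and SKP2 at 0.06, neither past it. RB1, the retinoblastoma gene, rose by 1.47 (limma adjusted p = 1.78e-15), which was 0.23 after the transcript correction and turned to -0.53 after the other. TFAM, which packages mitochondrial DNA, rose from 25.7 and 27.2 to 58.8 and 66.3 CPM, a difference of 1.21 (limma adjusted p = 2.29e-13) that was 0.03 and 0.39 after the corrections, the former not past the threshold. TFB2M, a mitochondrial transcription factor, rose by 0.69 (limma adjusted p = 6.53e-09) and was at 0.39 and 0.38 after them. Of 11 genes known as ETS1 targets 5 were listed. Of these 2 fell, 1 rose and 2 did not pass the threshold, where 70.7% of all genes were called. After the transcript correction 1 was called, as lower, beside 66.0% of all genes. PLAU, the urokinase protease, fell from 10.8 and 10.3 to 4.83 and 4.75 CPM, a difference of -1.0 (limma adjusted p = 4.87e-08) that was -0.78 and -0.74 after the corrections. MET, a receptor tyrosine kinase, rose by 0.89 (limma adjusted p = 2.33e-10), which was 0.08 after the transcript correction and turned to -0.41 after the other. ITGB3 fell by 0.46 on the log2 scale (limma adjusted p = 0.00922), and the call was lost without control replicate 2, at -0.38, or without siAARS1 replicate 2, at -0.42. It was also lost after the corrections, at -0.32 and -0.29, and in DESeq2.

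**Figure D4:**
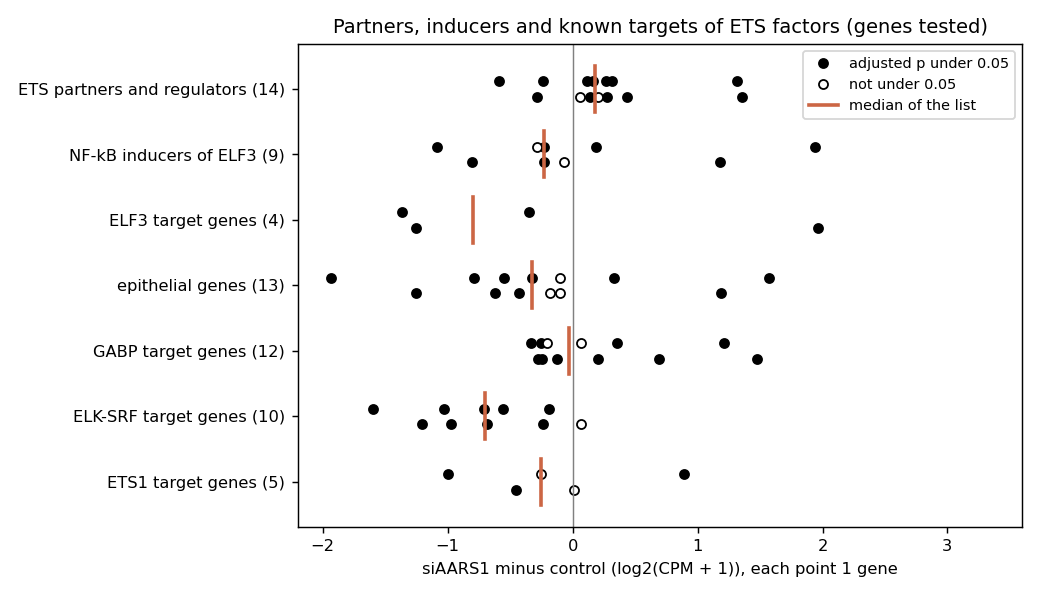
Difference of siAARS1 from control on the log2(CPM + 1) scale for each tested gene of 7 lists around the ETS factors, filled where the limma adjusted p-value was under 0.05, with a bar at the median of each list. Of the 10 genes tested as known targets of ELK factors and serum response factor, 9 were called lower on the deposited CPM. Among all genes tested 38.0% were called lower. SRF, 1 of the 9, turned to 0.10 and 0.16 after the corrections. The GABP targets lie on both sides of 0.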

How the data were processed

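RNA of 2 control and 2 siAARS1 libraries was measured by sequencing. The authors deposited 1 table of CPM values for 14431 genes, each above 1 CPM in at least 1 library. The labels' processing notes name RSEM 1.3.3 and hg38. The aligner, annotation and use of strand are not given in the sources used here. The members and lists were chosen with earlier results of these data known.

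Values were whole multiples of the CPM of 1 read in 100% of cases (within the rounding of the printed value), which gave the reads per gene. The library size behind the CPM was 0.749% to 1.89% above the summed reads. A count of 3 reads equalled 0.0880 to 0.0971 CPM, for counting error only. The chi-square statistic per gene between replicates was 3.63 in control and 3.62 in siAARS1. Replicates thus differed by more than the sampling noise of 1 library read again. This is not a check of quality. All 4 libraries were kept.

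The test was limma 3.58.1 (R 4.3.3, eBayes with a trend) on log2(CPM + 1), for the 14199 genes that averaged 1 CPM or more in either group, with group as the only term and Benjamini-Hochberg adjustment over all genes. A run on simulated data changed only a small part of the genes and held no trend with GC content between groups. It therefore does not vouch for the calls in these data. Recovered reads were also fitted with edgeR 4.0.16 and DESeq2 1.42.0. The transcript correction (mgcv 1.9.3) fitted how far each library lay from the mean of each gene as a smooth surface of transcript GC content and length, and subtracted it (less at low CPM, because of the pseudocount), for 13819 genes. The CDS/UTR correction, chosen after the data were seen, did the same with the coding sequence and 3' UTR for 12070 genes. Both also take out true changes that follow these properties. Where 2 values are given after the corrections, they are in this order. Each gene was represented by 1 principal transcript of GENCODE 29, which may not be the annotation the authors used and matched 97.2% of the genes.

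Named genes were the 10 members, AARS1, all listed genes of the rest of the family, up to 3 called genes with the largest difference of each list and the 5 genes nearest to ELF3. NOS2, MCL1, SRF, RELA, COX4I1, COX5B, SDHB, POLRMT, ATP5B, IL1A, IL1B, TNF, ATP5J and WBP4 were added after their values were seen, as were the markers of cell types by name. Promoters are those of RefSeq.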

Additional observations from a re-analysis of the deposited data

How the results depend on the processing

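ELF3 was lower under every alternative run. Its difference was -3.19 with a pseudocount of 0.1, -2.46 after median scaling, -3.30 in edgeR, -3.29 in DESeq2, -2.02 after the transcript correction (with or without the replicate block) and -1.95 after the CDS/UTR correction. Across fits that each left out 1 library it ran from -2.36 to -2.13. GABPA stayed higher (0.97 to 2.51) and ELK3 lower (-1.09 to -0.45), with no call lost under any alternative run. The alternatives do not say which correction is nearer the truth, and their causes were not tested.

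Of the 9 other members, 5 were called, 9 after median scaling and 8 after quantile normalization. Median scaling shifts all genes of a library alike, and quantile normalization does not. Fits without 1 library called 4 to 5. Among all genes, higher calls were 46.2% on the deposited CPM, 28.8% after median scaling, 37.0% after quantile normalization, 50.3% in edgeR and 53.8% in DESeq2, and the counts stayed within 1.5 times of 10032. Of the lists, partners and regulators had 6 calls after median scaling and 7 after the CDS/UTR correction, against 12, GABP targets 6 after the latter, against 10, and ETS1 targets 1 after the transcript correction, also with the block, against 3.

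Among the ETS genes and the genes with the largest difference of each list, those that turned after the transcript correction, with the same value under the replicate block, were ELF1 (-0.24), ELF4 (0.045), ETS2 (0.030), ELK1 (0.17), ERF (0.25), ETV1 (-0.57) and ETV2 (0.16). After the CDS/UTR correction those among them were ELF4 (0.056), ETS2 (0.14), ELK1 (0.27), ETV6 (0.025), ERF (0.22), ETV3 (0.094), CHUK (-0.034), RB1 (-0.53) and MET (-0.41). ETS1 turned after median scaling (-0.14) and quantile normalization (-0.10). ETS2 and ETV3 turned in edgeR (0.037 and 0.033) and DESeq2 (0.052 and 0.047). Fits without 1 library turned 3 genes near 0, ETS2 (-0.050 to 0.048), ETV3 (-0.070 to 0.058) and ETV2 (-0.35 to 0.17).

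The groups share replicate numbers, but nothing in the labels says that they pair the libraries. Over genes, the correlation of deviations between libraries of 1 number was 0.12. A fit with the replicate block called 10389 genes, and 5 of the 9 other members, at unchanged differences.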
